A study of Mus musculus with 6 samples.

Results

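The circadian clock genes described here are the 10 listed genes Clock, Npas2, Per1, Per2, Per3, Cry1, Cry2, Nr1d1, Nr1d2 and Dbp, out of 20145 genes named on the array. They were chosen by name, and every gene probe whose transcript accession belongs to one of them was taken, which gave 11 probes, 2 for Dbp and 1 for each of the others. Expression was measured on 6 one-colour Agilent arrays, 3 of wild-type and 3 of Plk2 -/- (null) samples. All 6 samples are primary mammary epithelial cells from the dissociated glands of female mice aged 8 weeks, of the strain 129sv/C57Bl6, and the groups differ in the labels by genotype only. Plk2 encodes a polo-like serine/threonine kinase, and the comparison asks which transcripts differ in cells that lack it. The labels used here do not say how the null allele was made, how many animals gave a sample, or at what time of day glands were taken. The p-values below therefore measure the spread between these samples, which may be technical in part, and with 6 arrays the precision is limited.

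The mammalian clock is a feedback loop of transcription. CLOCK or its relative NPAS2, each joined to a shared basic helix-loop-helix partner, activates the Per and Cry genes through E-box sequences, and the PER and CRY proteins then repress that activation. The same activators drive Nr1d1 and Nr1d2, which encode the nuclear receptors REV-ERB alpha and beta that repress genes of the loop, and Dbp, which encodes a transcription factor acting on D-box sequences of output genes. Transcripts of Dbp, Nr1d1 and the Per genes are known to swing widely over the day in most tissues, mammary gland included, and Per1 is also induced by glucocorticoid hormone and by acute stimuli.

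The sequences upstream of 4 members are shown, picked by their values on the arrays. Per1 and Cry2 had the smallest p-values among the members, and Nr1d1 and Dbp had the widest ranges among the wild-type samples. Each is the 250 bases before a RefSeq transcript start on the GRCm38.p6 assembly, 5′ to 3′ on the strand of the gene. The array itself was annotated on mm9, so these coordinates are not those of the probes. Capitals mark matches on either strand to the E-box CACGTG, the E-box variant CACGTT, the D-box TTANGTAA or the nuclear receptor core AGGTCA. The E-box reads alike on both strands, and no marked match overlaps another.
Per1 (chr11:69098699-69098948, plus strand): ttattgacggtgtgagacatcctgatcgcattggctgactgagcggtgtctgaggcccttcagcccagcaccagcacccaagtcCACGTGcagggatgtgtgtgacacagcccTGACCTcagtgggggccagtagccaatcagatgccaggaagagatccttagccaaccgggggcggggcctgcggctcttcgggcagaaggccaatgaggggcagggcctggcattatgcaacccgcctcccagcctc
Cry2 (chr2:92434070-92434319, minus strand): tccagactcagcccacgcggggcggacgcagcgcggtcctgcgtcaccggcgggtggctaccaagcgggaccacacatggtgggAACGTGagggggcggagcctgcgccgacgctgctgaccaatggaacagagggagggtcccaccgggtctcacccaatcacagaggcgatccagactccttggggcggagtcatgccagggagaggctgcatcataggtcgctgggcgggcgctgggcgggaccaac
Dbp (chr7:45704997-45705246, plus strand): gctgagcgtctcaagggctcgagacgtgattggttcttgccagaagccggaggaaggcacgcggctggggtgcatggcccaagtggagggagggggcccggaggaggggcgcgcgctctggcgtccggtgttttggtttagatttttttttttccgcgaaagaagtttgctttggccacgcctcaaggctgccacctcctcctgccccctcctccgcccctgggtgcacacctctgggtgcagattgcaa
Nr1d1 (chr11:98775378-98775627, minus strand): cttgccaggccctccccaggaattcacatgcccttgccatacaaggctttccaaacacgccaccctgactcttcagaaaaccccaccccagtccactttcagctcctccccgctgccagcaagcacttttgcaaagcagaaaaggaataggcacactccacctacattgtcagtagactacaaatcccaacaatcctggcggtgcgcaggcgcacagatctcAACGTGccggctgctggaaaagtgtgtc
The upstream Per1 start had an E-box at -166 to -161 and a nuclear receptor core at -137 to -132. The window of the other Per1 start, which is not shown, held no match. Cry2 had the E-box variant at -166 to -161 and Nr1d1 had it at -28 to -23, while the Dbp window held none of these letters. Upstream sequence was given for 9 of the 10 members, with 12 starts in all. The E-box was found in 2 members against 6.02% of all 32851 upstream windows, the variant in 3 members against 3.85%, the D-box in 1 member against 2.06% and the nuclear receptor core in 3 members against 14.0%. A member was counted if any of its starts had a match, while the percentages are of single windows, so these are unlike units. These matches are a description of the letters in the window and say nothing of factor binding.

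On the arrays, Plk2 was well above background in 3 of 3 wild-type and 0 of 3 null samples and at least 133.7-fold lower in the null samples (limma, adjusted p = 3.62e-06). The single probe checks the labels only if it lies in the deleted part, which is not given. The keratin genes Krt8, Krt18, Krt5 and Krt14, which define luminal and basal mammary epithelium, were well above background on all 6 arrays. The slide held wild type in row 1 and null in row 2, so row and genotype cannot be told apart. Null sample 3 stood apart on the second principal component, at 74.1 against -26.5 to 2.84 for the other 5 arrays. Markers of other cell types and states differed in level between the groups. All 15 lymphocyte markers had negative differences, with a summed level of 97.6 to 144.2 times the array's 75th percentile in wild type and 58.1 to 65.6 times in null samples. All 10 measured markers of dividing cells had positive differences (49.6 to 59.0 times against 84.2 to 168.7 times), as had 7 of 8 basal markers (280.9 to 474.4 times against 541.0 to 674.3 times). Of these 3 lists only 1 marker, of dividing cells, passed that threshold. All 9 fibroblast, all 8 endothelial and 9 of 10 myeloid markers had negative differences, none past it. Of 12 luminal markers 8 were negative, 1 of them past it. Of 5 adipocyte markers 4 were positive, none past it. The part of these shifts in the values of the clock genes was not tested, and in bulk samples fewer cells of a type and less RNA per cell cannot be told apart.

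Of the 10 clock genes, 8 were well above background on enough arrays to be tested and 2, Npas2 and Cry1, were not. No tested member passed an adjusted p of 0.05 (limma, 0 of 8), where 0.564% of all 24625 tested entries did, 0.227% as higher and 0.337% as lower. At an unadjusted p under 0.05 there were 2 of 8, Per1 and Cry2, both lower in null samples, where 23.0% of all entries reached that p, 13.5% as higher and 9.54% as lower. The groups did not overlap for the same 2 members, both lower, where 31.6% of all entries did not overlap, 19.6% as higher and 12.0% as lower. Without wild-type sample 2 neither reached an unadjusted p under 0.05, and 1 member did without wild-type sample 3 or without null sample 2. The scaling mattered too, as 1 member reached that p with median centring and 1 with scaling on spike-in controls. With spike-in controls that member was Dbp, higher in null samples, and neither Per1 nor Cry2 reached it. The share of members that differed was therefore near that of the array as a whole. The members' median difference was -0.16 on the log2 scale, with 6 negative and 2 positive, against a median of 0.03 over all entries; with scaling on spike-in controls these medians were 0.12 and 0.31. Their median size regardless of sign was 0.42 against 0.29 for all entries.

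**Figure D1:**
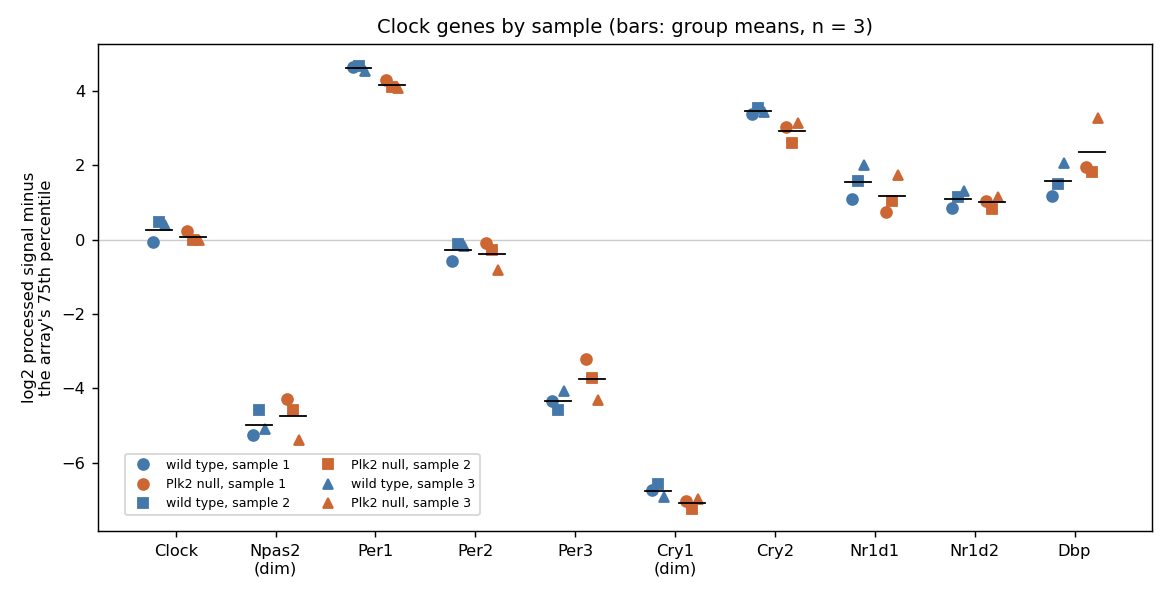
Centred log2 processed signal (vertical axis) of each of the 10 clock genes (horizontal axis) in 3 wild-type (blue) and 3 Plk2 null samples (orange), with symbols for the sample number and bars for group means. Per1 and Cry2 are the genes whose groups do not overlap among those well above background; levels of different genes come from different probes and are not compared.

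Clock encodes an activator subunit of the loop. Its level, as log2 signal minus the array's 75th percentile, was -0.06, 0.47 and 0.40 in wild-type samples 1, 2 and 3 and 0.24, -0.02 and -0.00 in null samples 1, 2 and 3. The groups overlapped, and the difference of -0.20 had an interval from -0.65 to 0.26 (95%, limma adjusted p = 0.565). Npas2, the relative of Clock, was not well above background in any wild-type sample, with processed signals of 6.77, 10.4 and 8.20, and was so in 2 of 3 null samples, with 15.7, 11.9 and 5.68. The null mean did not exceed the lowest level that counts as well above background, so no fold is given.

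The period genes did not move as a group. Per1, the repressor that also responds to acute signals, had levels of 4.64, 4.67 and 4.55 in the wild-type samples and 4.30, 4.10 and 4.08 in the null samples. Every null sample lay below every wild-type sample, and the within-group spread was small, 4.62 ± 0.06 against 4.16 ± 0.12 (SD, n = 3 each). The difference of -0.46 (SE 0.14; 95% interval -0.79 to -0.12) corresponds to a 1.37-fold lower mean in null samples and did not pass the threshold (limma adjusted p = 0.131). Per2, a core repressor of the loop, had levels of -0.56, -0.12 and -0.16 in wild type and -0.09, -0.27 and -0.83 in null samples. These ranges overlapped widely, with the highest and the lowest value both in null samples (difference -0.12, SE 0.24; limma adjusted p = 0.793). Per3, the period gene that the loop can do without, was dim, with processed signals of 12.6, 10.4 and 16.8 in wild type, where 2 of 3 arrays were well above background, and of 32.9, 21.5 and 12.1 in null samples. Its levels were -4.35, -4.58 and -4.07 in wild type and -3.21, -3.72 and -4.31 in null samples. Null samples 1 and 2 lay above all wild-type samples and null sample 3 among them (difference 0.59, SE 0.30; limma adjusted p = 0.288), and the difference was 0.11 with normexp background correction.

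The cryptochromes are the partners of the PER proteins and the strongest repressors of the loop. Cry2 had levels of 3.37, 3.54 and 3.44 in wild type and 3.03, 2.60 and 3.14 in null samples. All null samples lay below all wild-type samples, null sample 2 farthest. The mean was 3.45 ± 0.09 in wild type and 2.92 ± 0.29 in null samples (SD, n = 3 each), a difference of -0.53 (SE 0.18; 95% interval -0.96 to -0.09), or 1.44-fold lower, that did not pass the threshold (limma adjusted p = 0.161). Cry1 did not reach the level that counts as well above background in a single sample, with processed signals of 1.85 to 2.59, so no comparison is given for it.

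In the authors' deposited table, which gives a p-value for each row, the same pair of genes had the smallest p-values among the members, 0.0162 for Per1 and 0.0158 for Cry2, with wild type over null ratios of 1.43 and 1.57. That table holds values of the same arrays and so is not separate evidence. Spike-in scaling moved Per1 to -0.18 and Cry2 to -0.25, and neither then reached an unadjusted p under 0.05 by limma. Clock, Per2 and Nr1d2 became positive with that scaling.

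**Figure D2:**
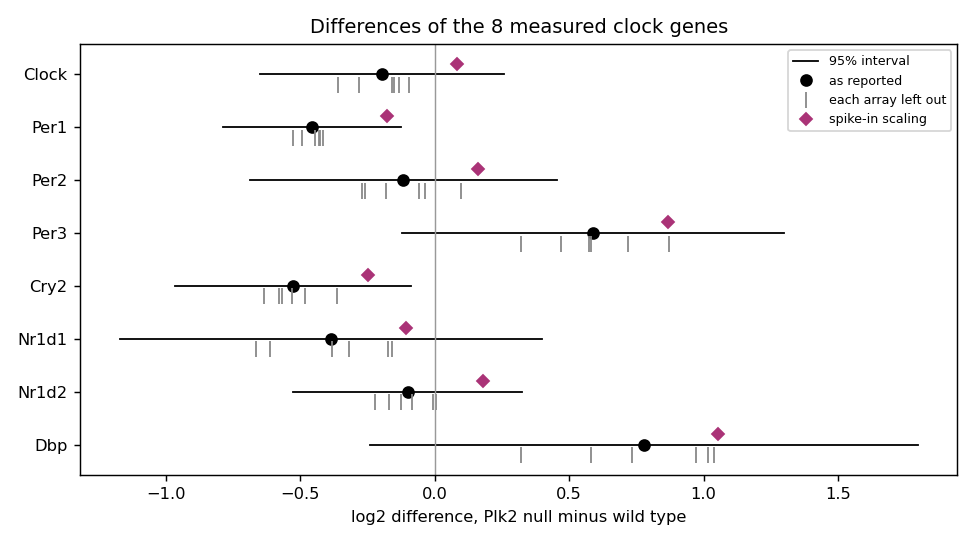
Log2 difference of null minus wild type (horizontal axis) for the 8 tested clock genes, with the 95% interval of the limma fit (line), the values with each array left out (grey ticks) and the value with spike-in scaling (diamonds). Only the intervals of Per1 and Cry2 lie below 0, from -0.79 to -0.12 and from -0.96 to -0.09, and those of the other 6 genes include 0.

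Dbp and Nr1d1 had wide ranges within each group. Dbp, the D-box output factor, had levels of 1.19, 1.49 and 2.06 in wild type and 1.96, 1.83 and 3.27 in null samples. Null sample 3 was far above all other samples, while null samples 1 and 2 lay below wild-type sample 3, so the groups overlapped. The processed signals ran from 585.6 to 1176 in wild type and from 1007 to 2318 in null samples. The mean was 1.58 ± 0.44 in wild type and 2.36 ± 0.80 in null samples (SD, n = 3 each), a difference of 0.78 (SE 0.43; 95% interval -0.24 to 1.80; limma adjusted p = 0.323). Without null sample 3 the difference was 0.32, and with spike-in scaling of all 6 arrays it was 1.06. The other Dbp probe gave 0.96, 1.35 and 1.86 in wild type and 1.70, 1.89 and 3.28 in null samples, again with null sample 3 highest, and a difference of 0.90 (SE 0.45; limma adjusted p = 0.282). In null sample 3 the early response genes, a list of Fos, Jun, Egr and related genes, also lay higher than in any other sample, at a median of 0.57 above the wild-type mean against -0.11 and -0.50 in null samples 1 and 2. Whether this is related to Dbp was not tested.

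Nr1d1, which encodes REV-ERB alpha, had levels of 1.10, 1.57 and 2.01 in wild type and 0.75, 1.05 and 1.73 in null samples. The groups overlapped, with null samples 1 and 2 below all wild-type samples and null sample 3 above 2 of them, and the difference of -0.39 (SE 0.33; limma adjusted p = 0.515) lay within the sample spread. It was -0.66 without null sample 3 and -0.16 without wild-type sample 3. The gene overlaps Thra, a thyroid hormone receptor gene, in the RefSeq table, and Thra differed by -0.02 (SE 0.14; limma adjusted p = 0.933). Nr1d2, which encodes REV-ERB beta, had levels of 0.86, 1.14 and 1.31 in wild type and 1.05, 0.81 and 1.14 in null samples, with a difference of -0.10 (SE 0.18; limma adjusted p = 0.763).

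In wild type Dbp, Nr1d1 and Nr1d2 put the samples in 1 order. Wild-type sample 3 had the highest and wild-type sample 1 the lowest level of Dbp, Nr1d1 and Nr1d2, and null sample 3 had the highest level of all 3 genes among null samples. The lowest null sample was sample 1 for Nr1d1 and sample 2 for Dbp and Nr1d2, so the order was not shared there. The range within wild type was 0.87 for Dbp and 0.91 for Nr1d1, each larger than the members' differences between groups. Clock, Per2 and Cry2 shared another order in wild type, highest in sample 2 and lowest in sample 1. With 3 samples few orders are possible, so a shared order says little. Wild-type sample 1 was the lowest wild-type sample for 6 of the 8 tested members. Null sample 3 was in contrast the lowest null sample for Per1, Per2 and Per3.

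In the null samples Dbp and Nr1d1 shifted from wild type by unlike amounts. After subtracting each gene's wild-type mean, the level of Nr1d1 minus that of Dbp was -0.07, 0.09 and -0.03 in wild-type samples 1, 2 and 3 and -1.20, -0.77 and -1.52 in null samples 1, 2 and 3. All null samples lay below all wild-type samples for this quantity, and their mean of -1.16 ± 0.38 (SD, n = 3) compares with a spread of 0.08 (SD, n = 3) in wild type. A shift of the whole array cancels in it, so it does not change with centring or spike-in scaling. Turned round, as the difference of Dbp minus that of Nr1d1, it ran from 0.90 to 1.36 over 18 alternatives. The pair was chosen after the values were seen, as that with the widest gap between groups among 28 pairs of tested members, and it was given no test. Choosing the widest gap also favours a pair with a small spread in wild type. Of the 28 pairs 10 had groups that did not overlap, among them 5 of the 7 pairs with Dbp. The lack of overlap is therefore not particular to Nr1d1. Of all single entries 31.6% did not overlap, and the share over pairs of any entries was not computed. These counts are thus not read as a trait of the clock genes or of Dbp.

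**Figure D3:**
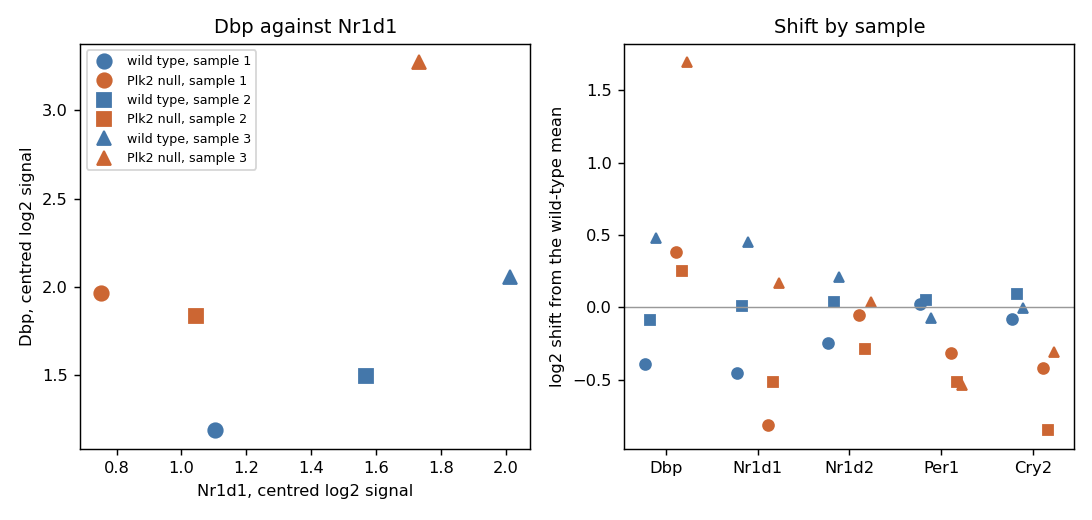
Left, centred log2 signal of Dbp (vertical) against Nr1d1 (horizontal) in 6 samples, blue for wild type and orange for Plk2 null. Right, log2 shift of 5 clock genes from the wild-type mean in each sample. On the left the 3 wild-type samples rise together in both genes, and in the null samples Nr1d1 lies lower relative to Dbp, by -1.20, -0.77 and -1.52 on the log2 scale.

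The genes whose profile over the 6 arrays was most like that of Dbp, by the root mean square difference of mean-centred log2 levels, were Dynll1 at 0.17, D5Ertd605e at 0.18, Sncg at 0.19, Fgf10 at 0.20 and Ntf3 at 0.21. Their differences ran from 0.55 to 0.85, and null sample 3 was the highest of the 6 samples for each of them, as for Dbp. Without null sample 3 the 5 differences were 0.16 to 0.29. The 5 genes were picked for their likeness to Dbp over these same arrays, so these shared traits follow largely from the choice. None of the 5 passed the threshold (lowest limma adjusted p = 0.328). Among the members themselves Clock and Nr1d2 were closest to each other, at 0.14, as were Per1 and Cry2, at 0.18. The nearest member to Dbp was Nr1d2, at 0.60. The measure is not scaled, so genes that vary little come out close to each other. By the same measure the spread about a gene's own mean was 0.21 for Clock, 0.17 for Nr1d2, 0.24 for Per1 and 0.31 for Cry2. For Dbp it was 0.65, so Nr1d2 was hardly nearer to Dbp than a flat profile.

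Of 34 other regulators of the clock, listed as partners, nuclear receptors, kinases, ubiquitin ligases and cofactors, 32 were tested. None passed the adjusted threshold (limma; 6 higher and 5 lower at an unadjusted p under 0.05, 34.4% against 23.0% of all entries), and the median was -0.08, or 0.19 with spike-in scaling. Bhlhe41, which encodes the repressor DEC2 that competes at E-boxes, had levels of 0.49, 0.32 and 0.20 in wild type and -0.83, -0.62 and -0.26 in null samples. All null samples were lower, and the difference was -0.90 (SE 0.19, limma adjusted p = 0.0794). With the mean of its 2 probes the difference was smaller, at -0.67 (limma adjusted p = 0.127). Nono, an RNA-binding cofactor of PER proteins, differed by 0.52 (SE 0.13), and Hdac3, the deacetylase that REV-ERB recruits, by 0.47 (SE 0.14). Crem, a cAMP response factor gene, differed by -0.76 (SE 0.23). For these 3 genes too the groups did not overlap, with limma adjusted p-values of 0.102 to 0.133. Without null sample 3, Bhlhe41 (adjusted p = 0.0390) and Crem (0.0469) passed the limma threshold, where the calls over all entries also rose from 139 to 707. Over 18 alternatives Bhlhe41 passed in 3, Crem in 2 and Nono in 2.

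Among 18 output genes of the clock, all tested, Pdk4 rose and none fell at the adjusted threshold. At an unadjusted p under 0.05 by limma, 3 were higher and 6 lower (50% against 23.0% of all entries), and the median was -0.03, or 0.25 with spike-in scaling. Pdk4, which encodes a kinase that restrains pyruvate dehydrogenase, had levels of 1.82, 2.37 and 2.54 in wild type and 4.09, 4.44 and 3.84 in null samples. The groups were far apart, and the rise was 3.68-fold (difference 1.88, SE 0.25; limma adjusted p = 0.0431). The call was lost in 8 of 18 alternatives, 5 of which left out an array (each but null sample 3), with differences of 1.67 to 2.16 over all 18. Por, the electron donor of cytochrome P450 enzymes, had levels of 3.58, 3.86 and 3.90 in wild type and 3.00, 2.79 and 3.11 in null samples, so all null samples were lower (difference -0.81, SE 0.16; limma adjusted p = 0.0734), and it passed the threshold in 4 of 18 alternatives. Lonrf3 differed by -0.84 (SE 0.22) and Wee1, a kinase gene that delays mitosis and is driven by CLOCK in liver, by -0.46 (SE 0.15), both with groups that did not overlap and limma adjusted p-values of 0.103 and 0.142. Tsc22d3, also in this list and lower in null samples, is given with the glucocorticoid targets below.

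Glucocorticoid hormone sets clocks in peripheral tissue and induces Per1 directly, so a list of 12 of its targets was described beside the members. Zbtb16, a zinc finger factor gene strongly induced by the hormone, had levels of 3.53, 3.76 and 3.63 in wild type and 2.41, 2.35 and 1.94 in null samples. It fell 2.66-fold (difference -1.41, SE 0.18; limma adjusted p = 0.0404), with no overlap of the groups. This call too was lost in 8 of 18 alternatives, 5 of them the arrays other than null sample 3 left out in turn, with differences of -1.51 to -1.13 over all 18. Tsc22d3, which encodes the hormone-induced protein GILZ, had levels of 4.14, 4.27 and 4.23 in wild type and 3.36, 3.13 and 3.80 in null samples, all null samples being lower (difference -0.78, SE 0.20; limma adjusted p = 0.0970). It passed in 4 of 18 alternatives, among them that without null sample 3 (limma adjusted p = 0.0396). Cebpd differed by 0.53 (SE 0.17), Lcn2 by 0.48 (SE 0.21) and Klf9 by -0.26 (SE 0.15), none past the threshold. Pdk4, Tsc22d3 and Klf9 are in both this list and that of the clock outputs, so the lists are not separate evidence. The glucocorticoid list had 7 positive and 5 negative differences and a median of 0.01 (0.29 with spike-in scaling), so its members did not share a direction. Lymphocyte markers had a median of -2.48 and fibroblast markers one of -0.49 in the same samples, and their part in the values of Zbtb16 and Tsc22d3 was not tested.

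**Figure D4:**
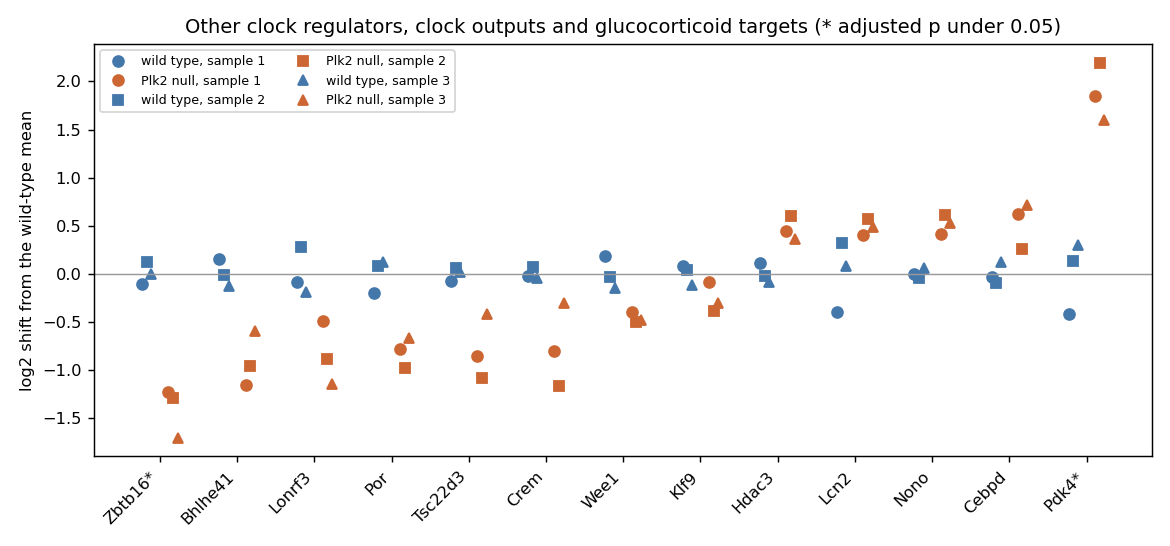
Log2 shift from the wild-type mean (vertical axis) in 3 wild-type (blue) and 3 Plk2 null samples (orange) for the genes with the smallest p in the lists of other clock regulators, clock outputs and glucocorticoid targets. Asterisks mark Zbtb16 and Pdk4, with an adjusted p under 0.05, at differences of -1.41 and 1.88.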

How the data were processed

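Trizol-extracted RNA was amplified and carried Cy3, per the labels' protocols. Per the file headers, arrays of Agilent design 028005 were read with Feature Extraction 11.0.1.1. The intensity used is the processed signal, corrected for background by the scanner software and not normalized between arrays in the deposited scanner files. The authors' deposited table of the series gives normalized intensities, a p-value, a ratio with null as the denominator and a signed fold as a score, by tools that no header or label names.

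From log2 processed signals the array's 75th percentile was subtracted. Control spots and 1119 outlier spots were left out, no spot was saturated, and spots of a probe were averaged. Probe accessions without versions were matched to RefSeq transcripts (GRCm38.p6); 26582 of 55681 probes matched. Probes needed to be well above background on 3 or more of 6 arrays, and the brightest probe stood for its gene, which left 24625 entries, 14433 of them named. Null minus wild type was tested over all entries with lmFit and eBayes (limma 3.58.1, R 4.3.3) and Benjamini-Hochberg adjustment at 0.05. Where a gene was not well above background in 1 group, the fold is a bound against the lowest level that is. The steps were tested on simulated data, where 32% of changes of 1 log2 unit and 72% of changes of 2 were called. No smaller change was simulated, and the largest difference of a clock gene was 0.78, so changes of that size may be missed.

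The text names all members, the 6 genes of each further list with the smallest p, and the 5 genes most like Dbp in profile; 2 of the genes so chosen are left out of the text. The members and lists were chosen with earlier results of these data known. Alternatives were other background correction, scalings, filters, probe choices and moderation, array weights, a replicate block, each array left out, and the deposited table's values.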

Additional observations from a re-analysis of the deposited data

How the results depend on the processing

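No clock gene was called at an adjusted p under 0.05 in any of 18 alternatives, each array left out included (0 to 0); the unadjusted threshold gave 2, and the number at that threshold ran from 0 to 3 over the other alternatives. The members' median difference of -0.16 was 0.12 with spike-in scaling and -0.31 to -0.09 with each array left out. With spike-in scaling the sign turned for Clock (0.081), Per2 (0.16), Nr1d2 (0.18), Klf4 (0.12), Klf6 (0.10), Klf9 (0.014) and Myc (0.065). With each array left out Per2 ran from -0.27 to 0.098 (positive without null sample 3), Nr1d2 from -0.22 to 0.0051 (positive without wild-type sample 3) and Klf2 from -0.76 to 0.040 (positive without null sample 2). Against 139 entries called in all, the counts were 1100 with normexp background correction, 340 with median centring, 398 with spike-in scaling, 772 with the deposited table's values, 31 without a filter, 379 with probes well above background on all 6 arrays, 848 with trended robust moderation, 1477 with array weights, 5671 at an unadjusted p under 0.05 and 7 to 707 with each array left out, the highest without null sample 3. Higher and lower calls were 56 and 83 as reported, 264 and 134 with spike-in scaling, 176 and 164 with median centring and 640 and 460 with normexp. The replicate number as a block gave 8 calls and called no clock gene. Same-numbered samples, which also shared a slide column, deviated with correlations of -0.12, 0.04 and -0.02 over entries. Pairs of unlike number ran from -0.17 to 0.21. These correlations cannot show whether same-numbered samples have more in common. Zbtb16 and Pdk4 were not called with the block either. The causes of these changes were not tested. Signal over background limits Npas2, Cry1, Per3 and Egr3.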

Other observations

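Early response genes, the immediate targets of acute stimuli, are of interest beside Per1, which belongs to both kinds of gene. All 19 listed genes were measured, 14 with a negative and 5 with a positive difference and a median of -0.09. This median was 0.19 with spike-in scaling, 0.12 without null sample 2 and -0.35 without null sample 3, so its direction was not stable. None passed an adjusted p of 0.05 (limma; 1 at an unadjusted p under 0.05, 5.26% against 23.0% of all entries). That gene was Egr3, a zinc finger factor gene, with levels of -3.85, -4.25 and -4.39 in wild type and -3.74, -3.36 and -3.53 in null samples (difference 0.62, SE 0.20; limma adjusted p = 0.138), and a difference of 0.02 with normexp background correction. Egr2 was also higher in each null sample than in any wild-type sample, by a mean of 0.34 (SE 0.20; limma adjusted p = 0.348). Myc, Klf6, Klf4 and Klf2 had groups that overlapped and differences of -0.31 to -0.16. The summed level of the list was 2114 to 2161 times the array's 75th percentile in wild type and 1434 to 2719 times in null samples, so the null samples differed more among themselves than the wild-type samples did.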
